A study of Bos indicus with 72 samples.

Results

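The genes described here are those whose RNA level varied most between the liver libraries of 12 Brahman heifers. A gene was a member when its mean over the 12 liver libraries was at least 10 RPKM (read count scaled to gene length and library size) and the SD of log2(RPKM + 0.5) over those libraries was at least 0.9. Genes with a mean of at least 50 RPKM in liver and under 1 CPM (read count scaled to library size alone) in both hypothalamus and pituitary were left out. Of 24616 genes in the liver files, 4005 reached the mean, 125 passed both thresholds, 18 of these were left out, and 107 members remained. The spread between liver libraries therefore chose the members and is given below as a description, with no test.

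The study sequenced RNA from 6 tissues of 12 heifers of the Brahman breed, a Bos indicus beef breed, around puberty, with 72 libraries in all. Heifers were labelled pre-puberty or post-puberty. No treatment, genetic alteration or age is given in the labels, and each animal gave 1 liver library. The liver is made up mostly of hepatocytes, which secrete plasma proteins, store and release glucose and lipid, and clear drugs and steroid hormones. It also holds bile duct cells, endothelium, stellate cells and resident and circulating immune cells. Liver RNA levels of many such genes are known to move with feeding, time of day, inflammation and inherited differences between animals. In whole-tissue RNA, fewer cells of a type and less RNA per cell cannot be told apart.

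The genes are known here only by Ensembl-style cattle identifiers, none of which (0 of 24616) matched the reference table at hand. Gene names, functions, positions and sequences are therefore not given, the cell types named above could not be checked by their markers, and the lists of liver pathways could not be read. Members are described by their levels, their libraries and their behaviour in other tissues.

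Gene reads ran from 18805151 to 25905298 per liver library, and among the 30 pairs of libraries with the same labelled status none was a repeat deposit. The liver file headers, which carry the words PRE-LIV or POST-LIV, went against the puberty labels in 2 libraries: number 2054 was labelled post-puberty with a PRE-LIV header, and number 2059 was labelled pre-puberty with a POST-LIV header. Number 2054 was labelled post-puberty in liver and uterus but pre-puberty in hypothalamus, pituitary and both ovaries. Number 2059 was labelled the other way round in each tissue. For this conflict between tissues, both were left out of the comparison by label. That comparison had 5 pre-pubertal libraries (2046, 2048, 2049, 2055 and 2060) and 5 post-pubertal ones (2047, 2056, 2057, 2061 and 2064). By header there were 6 against 6, with 2054 before and 2059 after puberty. The animal numbers of the liver libraries also conflict with those of other tissues, as described with the members that were all but off in some animals. The liver libraries form 2 sets of 6 by their library codes, lettered A to F in each. Numbers 2048, 2064, 2049, 2057, 2055 and 2056 stand at A to F of set 1, and 2054, 2059, 2046, 2061, 2060 and 2047 at A to F of set 2. The headers give the same puberty status to the same letter in all 6 pairs. Libraries are named by their labelled liver number throughout.

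The members were genes of ordinary liver abundance with a wide range between animals. Their mean levels ran from 10.3 to 508 RPKM with a median of 24.4 RPKM, against a median of 25.6 RPKM over all 4005 genes that reached the mean. Their SD on the log2(RPKM + 0.5) scale had a median of 1.15, against 0.28 over those 4005 genes. The SD was under 1 in 26 members, from 1 to 2 in 70 and at least 2 in 11. On RPKM + 0.5 the highest library stood a median of 15.3-fold above the lowest, with a range over members from 6.48-fold to 342-fold. Members were somewhat shorter than other genes of their level, with a median length of 1302 bases against 1587 bases.

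Reads behind these values were ample for most members. The mean number of reads per library ranged over members from 101 to 21352 with a median of 894. In 6 members at least 1 library held under 10 reads, and no member was at 0 reads in any library. The threshold did not fall at a natural break: ENSBTAG00000044078, just inside it, had an SD of 0.9004, and ENSBTAG00000004118, just outside, had 0.899.

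The extremes were spread over libraries. Library 2055 held the highest value of more members than any other library (20), followed by 2061 (18), 2060 (14), 2054 (13) and 2064 (10). Library 2060 held the lowest value of more members than any other (17), followed by 2049 (16), 2056 (15) and 2047 (13). Libraries with a PRE-LIV header held the highest value of 63 members and the lowest value of 58, so extremes in both directions lay on both sides of puberty. Together the members took from 0.551% of gene reads in library 2049 to 1.48% in library 2061.

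**Figure D1:**
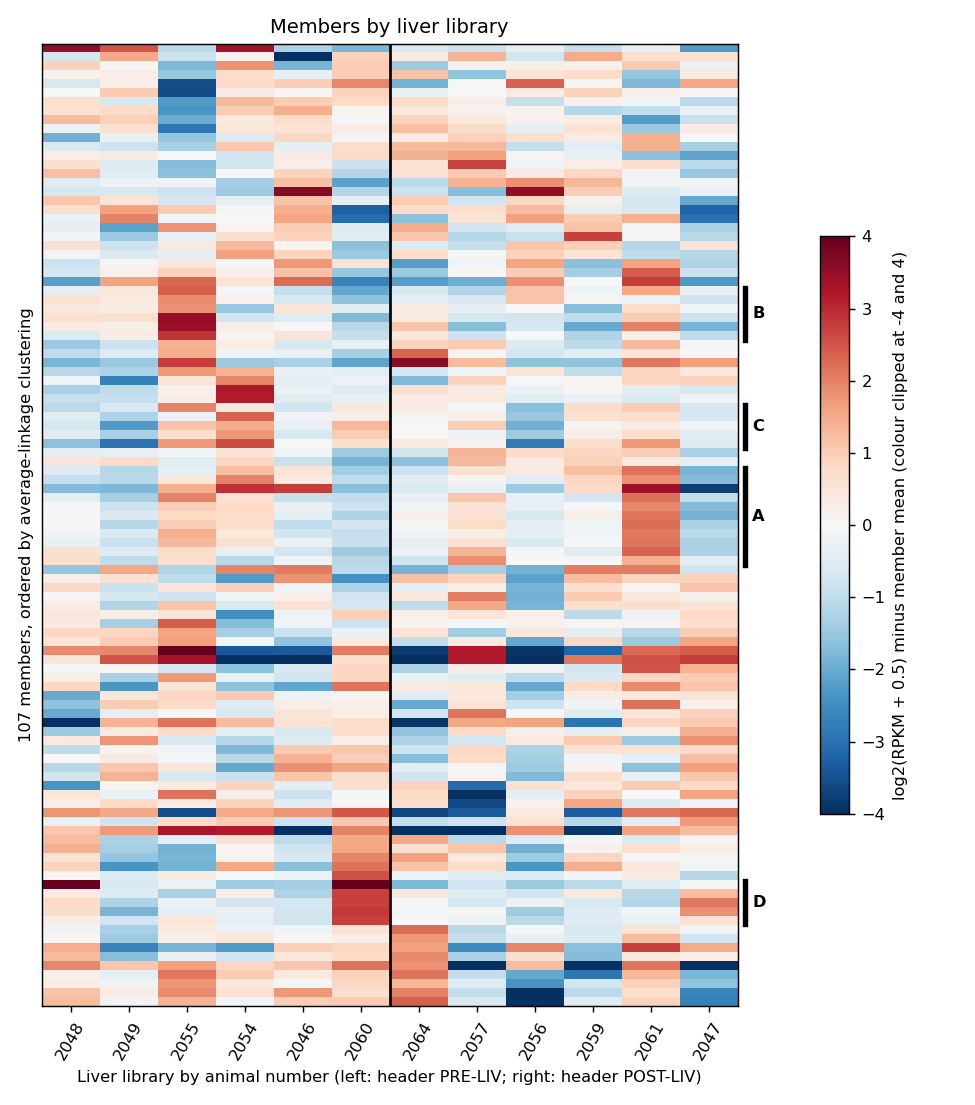
Level of the 107 members (rows, ordered by average-linkage clustering) in the 12 liver libraries (columns, by labelled liver number), as log2(RPKM + 0.5) minus the member's mean, with red for higher and blue for lower. The vertical line divides the 6 libraries with PRE-LIV headers from the 6 with POST-LIV headers, and black bars mark blocks A to D. Strong colour falls in single libraries and small groups of them on both sides of the line.

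Covariation among the members was patchy rather than general. The mean Pearson r over all pairs of members across the 12 liver libraries was 0.03. Of 5671 pairs, 69 (1.22%) had r of at least 0.8, and 45 of the 69 lay within a block. At the other end 17 pairs had r of -0.8 or below. Average-linkage clustering at r = 0.6 gave 4 blocks of 5 or more members, which held 27 members. A further 61 members fell into 22 groups of 2 to 4, and 19 members stood alone. The blocks were built from the liver values themselves, so their coherence is a description with no test. Points in every such r share the library and its depth.

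Block A was the largest, with 11 members whose pairs had a mean r of 0.77. It was highest in library 2061, at 2.18 above the members' own mean on the log2(RPKM + 0.5) scale, and 9 of the 11 had their maximum there. It was lowest in library 2047, at -1.57, where 8 of the 11 had their minimum. Both of these libraries are post-pubertal by label and by header, so the extremes of the block lay within a single status. Without library 2061 the mean r was 0.66, and without both it was 0.61.

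The member of block A with the highest mean r to the rest was ENSBTAG00000007662 (0.87), which ran from 59.6 RPKM in library 2047 to 744 RPKM in library 2061 with a median of 181 RPKM. Next came ENSBTAG00000031797 (0.86), from 47.2 RPKM in library 2047 to 519 RPKM in library 2061. In these members libraries 2055 and 2054 followed library 2061, at 391 and 340.1 RPKM for ENSBTAG00000007662 and at 287 and 182 RPKM for ENSBTAG00000031797. The pair had r of 0.98 with each other, as had ENSBTAG00000007662 with ENSBTAG00000010322, a block member that ran from 2.28 to 45.4 RPKM. Mean levels within the block spanned 12.8 to 258 RPKM. Its widest member was ENSBTAG00000006354, named after its values were seen, which ran from 3.17 RPKM in library 2047 to 522 RPKM in library 2061 with an SD of 2.26.

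Of the 4 blocks, A was the one whose members moved together most in the hypothalamus, a tissue whose spread the rule did not use. All 11 members were at 1 CPM or more in hypothalamus and in pituitary. The mean r between members was 0.39 over the 12 hypothalamus libraries and 0.24 over the 12 pituitary libraries, against 0.03 and 0.07 over all members at that level. Pituitary CPM of ENSBTAG00000007662 was lowest at 942 in animal 2046 and highest at 4303 in animal 2057, and its hypothalamus CPM ran from 256 in animal 2056 to 531 in animal 2057.

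Block B had 6 members with a mean pair r of 0.71 and rested largely on library 2055, which is pre-pubertal by label and by header. All 6 members had their maximum there, at a mean of 2.66 above their own means, and the mean r dropped to 0.49 without that library. The lowest library was 2060, also pre-pubertal, at -1.32. ENSBTAG00000046587, the member closest to the rest (mean r 0.80), stood at 85.5 RPKM in library 2055 and between 1.73 RPKM in library 2060 and 14.7 RPKM in library 2061 elsewhere. ENSBTAG00000026779 (mean r 0.76) stood at 307 RPKM in library 2055 and between 17.7 RPKM in library 2059 and 61.2 RPKM in library 2046 elsewhere. In hypothalamus and pituitary the mean r among the 5 members at 1 CPM or more was -0.04 and 0.05.

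Blocks C and D came next in size and tied, with 5 members each. Block C had the highest mean pair r, 0.80, and it did not rest on 1 library, since without its highest library the mean r was 0.83. It was highest in library 2054 (1.71) and in library 2055 (1.06), and lowest in libraries 2056 (-1.86) and 2049 (-1.68). ENSBTAG00000047502 (mean r 0.87) ran from 2.19 RPKM in library 2049 and 2.52 RPKM in library 2056 to 68.5 RPKM in library 2055 and 128 RPKM in library 2054. ENSBTAG00000004344 (mean r 0.86) was lowest in the same libraries, at 76.1 and 70.5 RPKM, and highest in library 2054 at 636 RPKM. The 5 members had a mean r of 0.41 over the pituitary libraries and of -0.10 over the hypothalamus libraries.

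Block D had a mean pair r of 0.77 and was highest in library 2060 (3.13), followed by 2048 (1.35) and 2047 (1.13). Without library 2060 the mean r was 0.55. Over the hypothalamus libraries the mean r of the 5 members was -0.14, and over the pituitary libraries that of the 4 members at 1 CPM or more was 0.23. ENSBTAG00000002473 (mean r 0.82) stood at 78.9 RPKM in library 2060, 38.9 RPKM in 2047 and 17.99 RPKM in 2048, against 2.55 to 11.05 RPKM in the other libraries. ENSBTAG00000014069 (mean r 0.81) stood at 319 RPKM in library 2060, 204 RPKM in 2047 and 83.4 RPKM in 2048, against 19.9 to 47.4 RPKM in the others. Libraries 2060 and 2048 have PRE-LIV headers and library 2047 a POST-LIV header, while 2060 and 2047 are of set 2 and 2048 is of set 1.

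**Figure D2:**
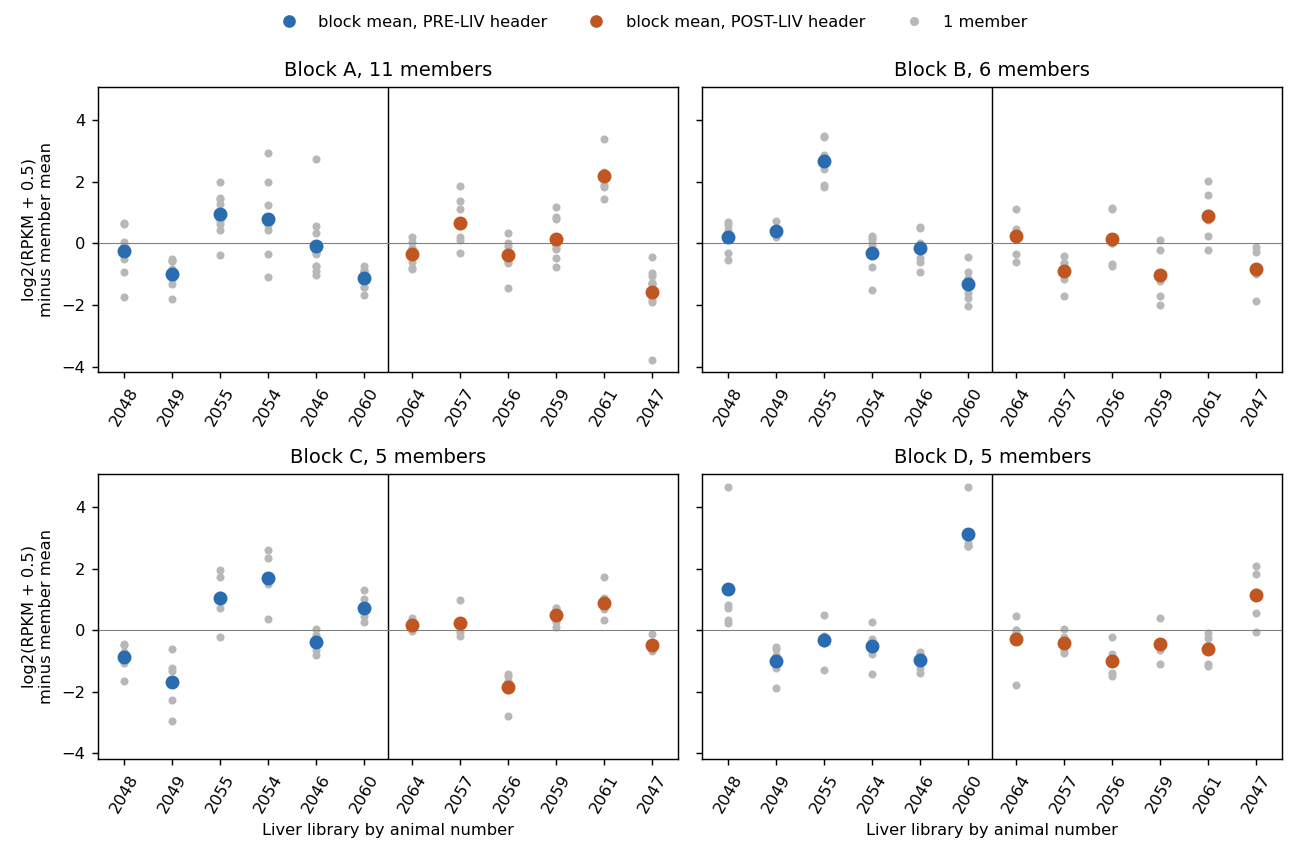
Level of each block in the 12 liver libraries, as log2(RPKM + 0.5) minus each member's mean. Grey points are single members, coloured points are block means (blue for PRE-LIV headers, orange for POST-LIV headers), and the vertical line divides the headers. The single libraries that stand highest are 2061 for block A, 2055 for block B, 2054 for block C and 2060 for block D.

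None of the 4 blocks followed the PRE-LIV and POST-LIV headers. Block A averaged -0.12 ± 0.86 (SD, n = 6) in the libraries with PRE-LIV headers and 0.12 ± 1.25 in those with POST-LIV headers, on the log2 scale relative to the members' own means. Block B averaged 0.25 ± 1.32 before and -0.25 ± 0.78 after puberty by header. Block C averaged 0.10 ± 1.28 before and -0.10 ± 0.97 after, and block D averaged 0.27 ± 1.65 before and -0.27 ± 0.73 after. In every block the difference between the means was smaller than the SD within either header group, and the ranges overlapped. Grouped by label, 5 against 5, block means stood at -0.30 ± 0.83 before and 0.11 ± 1.40 after puberty for A, and at 0.36 ± 1.45 and -0.09 ± 0.76 for B. They stood at -0.23 ± 1.13 and -0.21 ± 1.04 for C and at 0.43 ± 1.79 and -0.24 ± 0.81 for D.

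Close pairs were also found outside the blocks. ENSBTAG00000046076 and ENSBTAG00000047529, named after their values were seen, had r of 0.97 with each other. The first stood at 100.6 RPKM and the second at 127 RPKM in library 2054, and no other library exceeded 16.8 and 18.2 RPKM. ENSBTAG00000001595 and ENSBTAG00000038067, with r of 0.97, shared low values, with 4.55 and 11.78 RPKM in library 2056 and 16.3 and 28.5 RPKM in library 2047.

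The comparison after against before puberty asked whether any member differed in level with the labelled status. The rule did not use the labels, but it used the same liver values. With limma on log2(RPKM + 0.5), 5 against 5 libraries, no gene of 11697 tested passed an adjusted p of 0.05 (background 0%), and no member of 107 did. At an unadjusted p under 0.05 stood 2 of 107 members, 1 higher and 1 lower after puberty, against 1.71% of all genes tested. DESeq2 on reads recovered from the RPKM values called 1 gene (0.00566% of those with a p-value), ENSBTAG00000001801, which is no member and was listed at 0 RPKM in all 5 pre-pubertal libraries; edgeR called none. Unadjusted, DESeq2 put 5 and edgeR 3 members under 0.05, and 4 members had no p-value in DESeq2. Both count tests had ENSBTAG00000007816 and ENSBTAG00000047547 among them, named after their values were seen. ENSBTAG00000047547 had the largest of these changes, -4.78 (SE 1.24) on the log2 scale in DESeq2 with an adjusted p of 0.358, against -2.33 (SE 1.16) in limma with an adjusted p of 0.9998. Its pre-pubertal libraries averaged 27.8 ± 36.4 RPKM, with 2 of 5 high, and its post-pubertal libraries 1.09 ± 0.742 RPKM (SD, n = 5 each).

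The members' changes lay on both sides of 0. The fitted change was above 0 in 55 members and below 0 in 52, with a median of 0.02 on the log2 scale, against 59.1% above 0 and a median of 0.04 over all genes tested. Neither side was stable: with median-of-ratios scaling 52 members and 49.7% of all genes were above 0, with edgeR and TMM factors 49 members and 46.9%, and the members' median ran from -0.08 to 0.13 when 1 library was left out. The size of the change had a median of 0.47 in members and 0.12 in all genes, a difference that follows from choosing members by their spread, and the median SE of a member was 0.63. The status groups did not separate in any member: 0 of 107 had values without overlap between the 5 and 5 libraries (background 0.231%), and 0 of 107 by header, 6 against 6 (background 0.120%). By header the limma test again called no gene and put 3 members, against 2.23% of all genes, under an unadjusted p of 0.05: the same 2 members as by label, and ENSBTAG00000027412, described with the members that were all but off in some animals.

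**Figure D3:**
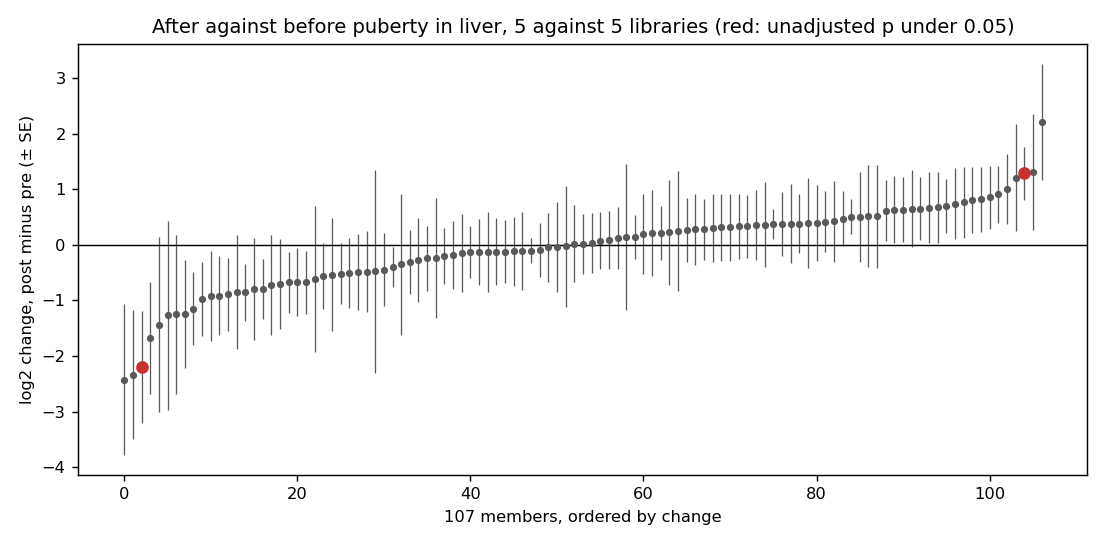
Change after against before puberty of each member in liver on the log2(RPKM + 0.5) scale (points), with its SE (bars), from limma on 5 against 5 libraries, ordered by size. The 2 red members have an unadjusted p under 0.05, and none passed after adjustment. Changes run from -2.43 to 2.21 with wide errors at both ends.

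ENSBTAG00000020789 had the smallest p among members that were higher after puberty. Before puberty it stood at 3.59, 12.01, 4.82, 26.8 and 13.8 RPKM in libraries 2048, 2049, 2055, 2046 and 2060. After puberty it stood at 19.0, 29.2, 25.0, 41.2 and 14.1 RPKM in libraries 2064, 2057, 2056, 2061 and 2047. Library 2046 lay among the post-pubertal values, so the groups overlapped. The means were 12.2 ± 9.27 and 25.7 ± 10.4 RPKM (SD, n = 5 each), and the limma change was 1.28 (SE 0.48) on the log2 scale with an adjusted p of 0.9998.

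ENSBTAG00000001595 had the smallest p among members that were lower after puberty. Before puberty it stood at 232, 129.7, 390.4, 353 and 163 RPKM, in the same order of libraries. After puberty it stood at 427, 53.3, 4.55, 169.9 and 16.3 RPKM. The highest value of all, in library 2064, was post-pubertal, and so were the 3 lowest. The means were 253 ± 115 and 134 ± 176 RPKM, and the limma change was -2.20 (SE 1.001) on the log2 scale with an adjusted p of 0.9998. It was -1.37 without library 2056 and -0.98 in edgeR on recovered reads.

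The split of the liver into library sets was compared in the same way, 6 against 6 with the labelled status as a term. limma called no gene of 11861 and no member, with 3.79% of all genes and 5 of 107 members under an unadjusted p of 0.05, 2 of them higher in set 2 and 3 higher in set 1. The largest of these differences, set 2 minus set 1 on the log2 scale, were 2.09 (SE 0.72) in ENSBTAG00000024608 and -2.01 (SE 0.70) in ENSBTAG00000037559, named after their values were seen. The liver level of ENSBTAG00000024608 also went with other tissues once liver numbers were exchanged between the sets, as described below. In liver this gene stood at 18.2 to 26.2 RPKM in libraries 2049, 2054, 2059, 2046 and 2061, of which 2049 is of set 1. It stood at 1.22 to 3.11 RPKM in the others. Each animal gave a liver library to a single set, so set and animals cannot be told apart within the liver. The other 3 were ENSBTAG00000001405 of block C, ENSBTAG00000009844 of block B and ENSBTAG00000017040. No member had values without overlap between the sets (background 0.120%). The fitted difference, set 2 minus set 1, was above 0 in 65 members and below 0 in 42, with a median of 0.23. Over all genes 39.7% were above 0 and the median was -0.04. The members' median was 0.09 without library 2057 and 0.13 without library 2056.

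In 11 members the libraries split into a low and a high class, with a gap of at least 3 on the log2(RPKM + 0.5) scale between neighbouring libraries. They were chosen after their values were seen. In 6 of them at least 3 libraries lay on each side of the gap. The others had 1 low library each, except ENSBTAG00000047547. It was high in libraries 2048 (68.3 RPKM) and 2060 (67.0 RPKM) and at most 2.11 RPKM in the other 10. It also belongs to block D, which was highest in library 2060 and next in 2048. The rest of the 11 lie outside the blocks.

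ENSBTAG00000047029 had the largest SD of all members, 3.38. In libraries 2054, 2046, 2056 and 2064 it stood at 0.0932, 0.598, 0.607 and 0.794 RPKM, and in the other 8 it lay between 28.9 RPKM (library 2048) and 202 RPKM (library 2055). ENSBTAG00000038430 had the second largest SD, 3.18, and the highest mean of the members, 508 RPKM. It was low in the same 4 libraries and in library 2059, at 8.22 to 13.7 RPKM, and lay between 483 and 2055 RPKM in the other 7. The low libraries of both carried PRE-LIV and POST-LIV headers, at 2 and 2 for ENSBTAG00000047029 and 2 and 3 for ENSBTAG00000038430.

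ENSBTAG00000027412 was at 0.775, 1.51 and 1.91 RPKM in libraries 2057, 2059 and 2047 and at 81.6 to 207 RPKM in the other 9. All 3 low libraries had POST-LIV headers, but libraries 2064, 2056 and 2061, with the same header, stood at 161, 107 and 204 RPKM, within the range of the PRE-LIV libraries. Its limma change after puberty, by label, was -2.43 (SE 1.36) with an adjusted p of 0.9998. ENSBTAG00000009656 was at 0.0363 to 0.122 RPKM in libraries 2046, 2057, 2059 and 2064 and at 19.6 to 88.1 RPKM in the other 8. ENSBTAG00000032764 was at 2.57, 3.72 and 7.67 RPKM in libraries 2048, 2064 and 2059 and at 89.5 to 281 RPKM in the other 9. In ENSBTAG00000001851 libraries 2064, 2055, 2057 and 2059 stood at 0.230 to 0.405 RPKM and the other 8 at 11.499 to 50.7 RPKM.

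**Figure D4:**
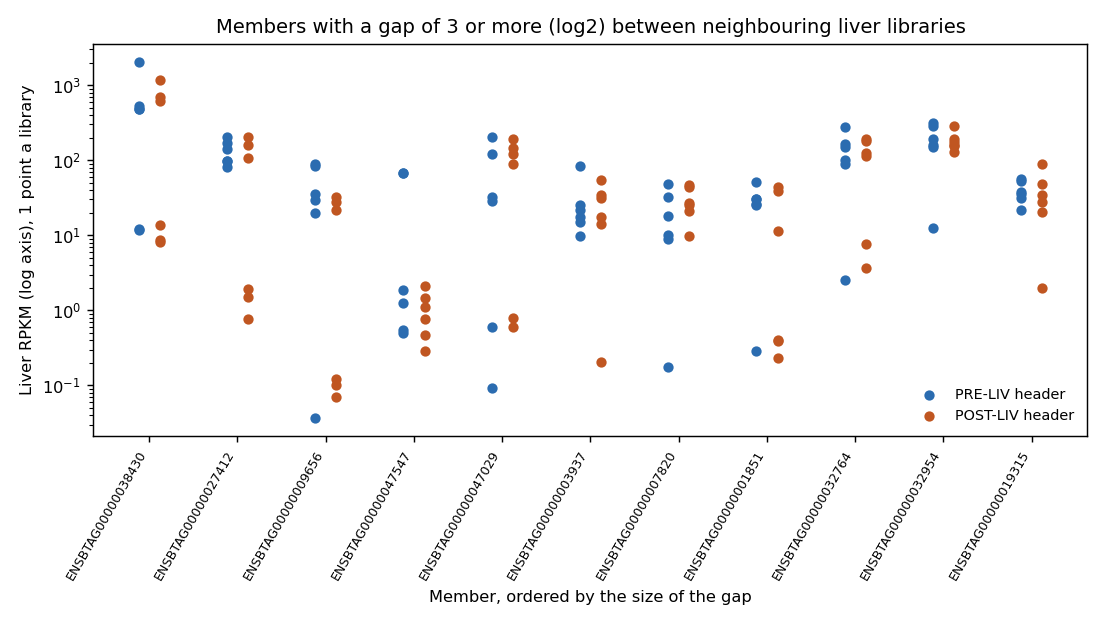
Liver RPKM (log axis) of the 11 members with a gap of at least 3 on the log2 scale, 1 point per library, blue for PRE-LIV and orange for POST-LIV headers. Low libraries of ENSBTAG00000027412 are all POST-LIV and high libraries of ENSBTAG00000047547 are both PRE-LIV, and in each the remaining libraries of that header lie among those of the other header.

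Most of these members were also high in some animals and low in others in tissues whose spread the rule had not used, but mostly not in the animals of the same number. ENSBTAG00000032764 came nearest to the labelled numbers, with 2 of its 3 low animals shared in the pituitary. ENSBTAG00000003937 had no such classes in hypothalamus (1.92 to 3.59 CPM) or pituitary (1.85 to 4.97 CPM). In the uterus it stood at 0.517 RPKM in animal 2061 and from 27.9 RPKM upwards in the others. Some other members had close values where the classes would divide, as ENSBTAG00000001851 in pituitary (1.45 and 1.48 CPM). ENSBTAG00000038430 had them in pituitary (3.61 and 4.04 CPM) and hypothalamus (7.79 and 8.27 CPM), and ENSBTAG00000019315 in hypothalamus (17.5 and 19.0 CPM). The matches below go by rank, with or without a gap. In the pituitary ENSBTAG00000027412 stood at 0.337, 0.303 and 0.278 CPM in animals 2064, 2056 and 2061 and at 9.29 to 24.1 CPM in the other 9. The hypothalamus libraries low in this gene were of the same 3 animals, at 0 to 0.707 CPM against 26.05 to 60.2 CPM, and so were the uterus libraries, at 0.0965 to 0.233 RPKM against 10.2 to 34.5 RPKM. In liver the low libraries were 2057, 2059 and 2047, which stand at the same letters, D, B and F, of the other library set as 2061, 2064 and 2056. ENSBTAG00000047029 was low in the pituitary of animals 2047, 2048, 2049 and 2059, at 1.18 to 1.85 CPM against 14.0 to 94.2 CPM. These are the partners, by letter, of the liver libraries 2056, 2054, 2046 and 2064.

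Exchanging the liver numbers between the sets at each letter was therefore set beside the numbers as labelled. Over the 11 members there were 29 places in the smaller class of liver libraries. Among the same number of pituitary libraries at that end of the range, 24 of the 29 were of the same animal with the exchange and 6 as labelled, and all animals matched in 8 of 11 members with it and in none as labelled. In the hypothalamus 16 of 21 places matched with the exchange and 6 as labelled, over the 9 members that could be ranked there. In the uterus 20 of 25 matched with it and 6 as labelled, over 10 members. There, number 2054 was low in place of 2059 in ENSBTAG00000038430, ENSBTAG00000009656 and ENSBTAG00000047029. Number 2059 was high in place of 2054 in ENSBTAG00000047547, and ENSBTAG00000019315 matched in 0 of 1. Both of these numbers have puberty labels that differ between tissues. The members without a full match in the pituitary were ENSBTAG00000038430, with 4 of 5 animals under the exchange, ENSBTAG00000001851, with 1 of 4, and ENSBTAG00000003937, with 0 of 1. This exchange was known from an earlier look at these data, so the counts describe it and are no independent support for it. Since the headers give both libraries of a letter the same status, grouping by header is the same with either numbering.

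**Figure D5:**
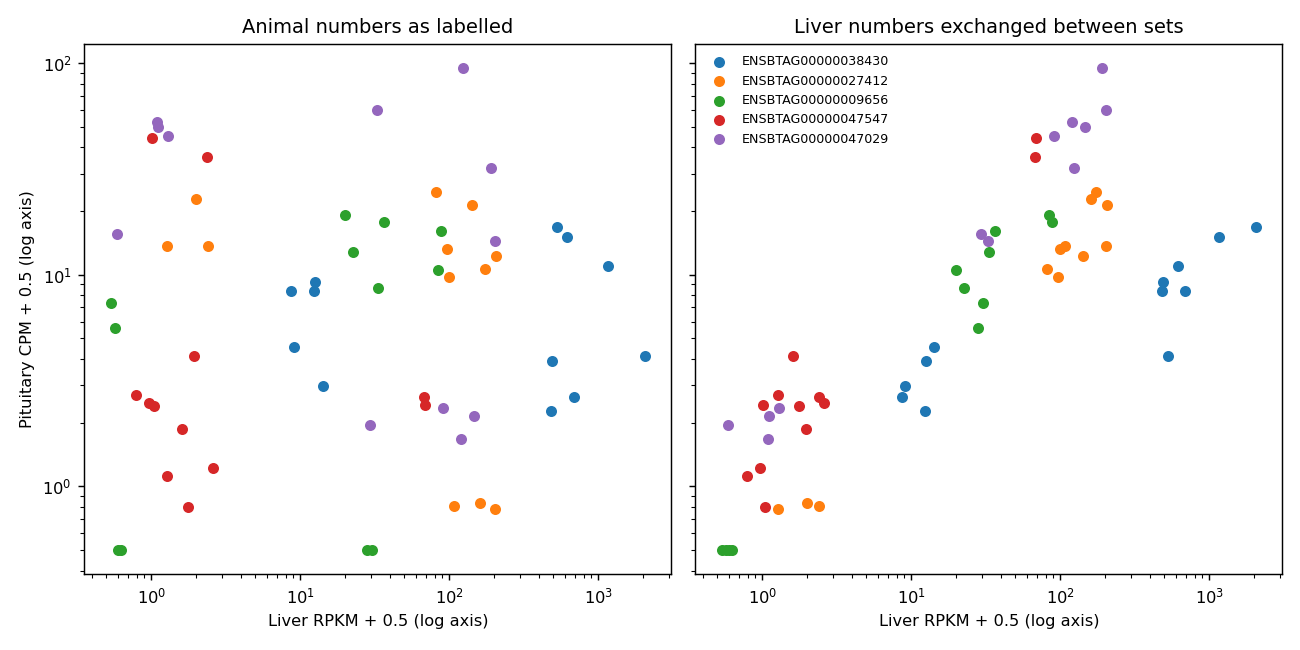
Liver level (RPKM + 0.5, log axis) against pituitary level (CPM + 0.5, log axis) of the 5 members with the largest gaps among those with at least 2 libraries in the smaller class, 1 point per animal and member. With the numbers as labelled (left) high and low classes are mixed, and with liver numbers exchanged at each letter (right) low liver libraries meet low pituitary libraries for 4 of the 5 members, with 1 library out of place in ENSBTAG00000038430.

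Liver and pituitary levels were also set against each other over all 88 members at 1 CPM or more in the pituitary, across the 12 animals and with no test. The median Pearson r was 0.35 with the exchange and -0.02 as labelled, and r reached 0.7 in 25 and in 2 members. Among the 3697 genes at 10 RPKM or more in liver and 1 CPM or more in pituitary, 4.27% reached 0.7 with the exchange and 0.46% as labelled. The median r of those genes was 0.16 with the exchange and 0.07 as labelled. With the hypothalamus the median over 86 members was 0.17 with the exchange and 0.01 as labelled, with 13 and 0 members at 0.7 or more. Over the 3668 genes compared there, 1.4995% reached 0.7 with the exchange and 0.545% as labelled, while their median r was -0.02 and 0.03. Points in these correlations share the animal and differ in library, depth and tissue.

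The kinds of member differed in how far their liver levels went with the other tissues under the exchange. ENSBTAG00000047547 has a gap and belongs to block D, so it is counted under both. The 11 members with a gap had a median r of 0.93 with the pituitary, and 8 of them reached 0.7. Block A had a median of 0.57 with 5 of 11 at 0.7 or more, block D 0.53 with 1 of 4 (0.32 with 2 of 4 as labelled, the only members to reach 0.7 with that numbering), block C 0.48 with 1 of 5, and block B 0.10 with 0 of 5. The 53 remaining members that were measurable in the pituitary had a median of 0.19, with 11 at 0.7 or more. In the hypothalamus the median was 0.84 for 10 members with a gap, 0.52 for block A, 0.10 for block C and below 0 for blocks B and D. In all, 11 members reached 0.7 in both tissues, of which 7 had a gap and 1, ENSBTAG00000047502, belonged to a block. ENSBTAG00000024608, named above for its difference between library sets, was among the 11. It had r of 0.96 with the hypothalamus and 0.94 with the pituitary.

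Members were detected less widely outside the liver than other genes of their liver level. A mean of at least 1 CPM was reached by 86 members (80.4%) in the hypothalamus and 88 (82.2%) in the pituitary, against 95.9% and 96.6% of all genes at 10 RPKM or more in liver. The corresponding counts were 74 members (69.2%) for left and 69 (64.5%) for right ovaries, against 89.2% and 89.9%. In the uterus 99 members were listed, and 83 had a median of at least 1 RPKM. The rule's exclusion raises the members' share in hypothalamus and pituitary, since it removed liver genes near 0 there.

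The members measurable in other tissues also varied more between animals there. In the hypothalamus their SD of log2(CPM + 0.5) had a median of 0.45, against 0.20 over 3668 genes at 1 CPM or more there and 10 RPKM or more in liver, and 19 members (22.1%) reached 0.9 against 1.99% of those genes. In the pituitary the medians were 0.57 and 0.25, and 15 members (17.0%) reached 0.9 against 1.11%. In both tissues 10 members did so, which is 52.6% of the hypothalamus members and 66.7% of the pituitary members at that spread, and 5 of the 10 had a gap in liver. Median levels of members were lower than those of the compared genes, at 8.30 against 49.8 CPM in the hypothalamus and 10.1 against 50.1 CPM in the pituitary, and the part of that lower depth in the larger SD was not tested.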

How the data were processed

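RNA was purified with Trizol and RNeasy columns, per the labels' protocols. The genome build was UMD3.1, per the submitters' processing notes; aligner, counter and annotation were not found in them. The authors deposited RPKM for liver, raw counts per gene for hypothalamus, pituitary and ovaries, and log2 values without sign for uterus. Rows naming no gene stayed out of library totals.

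Whole reads were recovered from liver RPKM for 17852 of 17853 genes within 0.003 reads. Uterus values were read as the size of log2(RPKM + 0.001). A value was read as below 0 where that gave whole reads or 0 reads, and otherwise as above 0. In 1135 of 173244 values both signs gave whole reads. Whole reads could be tried only for the 14317 of 14437 uterus genes with a known length. In all, 26004 values were read as below 0, and 5706 were when the totals were shifted between libraries, so some signs may be wrong. limma 3.58.1 (trend, robust) was fitted to log2(RPKM + 0.5) where 5 or more libraries reached 0.5 RPKM, two-sided, with Benjamini-Hochberg adjustment over all genes tested. edgeR 4.0.16 and DESeq2 1.42.0 on recovered reads were alternatives. The fits were also run on simulated counts with the same spread set for all genes. That does not show how they perform on genes as variable as the members. Each animal is 1 replicate.

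The members and lists were chosen with earlier results of these data known. Named were the 2 members of largest SD, the 2 of highest mean r in the largest blocks (4 blocks, since C and D tied), that of smallest p in each direction and the nearest on each side of the SD threshold. Others were picked after their values were seen. Near-identical or overlapping genes may share reads.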

Additional observations from a re-analysis of the deposited data

Results flagged for a closer look

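Within the 5 pre-pubertal or 5 post-pubertal liver libraries, 1 library stood far from the other 4 in 7 of 44 sets of 5 values examined, which were 21 members and the gene reads in each status; chance gives about 1 in 20. ENSBTAG00000038430 stood at 12.03 RPKM in library 2046 before puberty, against 483 RPKM in the next. ENSBTAG00000031797 of block A stood at 287 RPKM in library 2055, against 96.7 RPKM in the next highest. Library 2055 was also low in ENSBTAG00000001851, at 0.289 RPKM against 25.9 RPKM, and in ENSBTAG00000032954, at 12.4 RPKM against 152 RPKM. ENSBTAG00000032764 was low in 1 library of each status, at 2.57 RPKM in library 2048 before puberty against 89.5 RPKM, and at 3.72 RPKM in library 2064 after puberty against 114 RPKM. ENSBTAG00000019315 stood at 1.99 RPKM in library 2057 after puberty against 20.7 RPKM. All but ENSBTAG00000031797 are members with a gap, which were picked for such separation.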

How the results depend on the processing

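No paired analysis was possible because the status groups hold different animals and the replicate numbers of the liver only follow the order of deposit. No member was called after against before puberty under any of 22 alternatives, or between library sets under any of 16. Members at an unadjusted p under 0.05 after against before puberty numbered 2 and ran from 1 to 8 when 1 library was left out, with 1 without library 2048 or 2060, 4 without 2056, 7 without 2064 or 2047 and 8 without 2055. They numbered 1 with a pseudocount of 0.1, with no filter, with a term for the library set or with all 12 libraries by label, 5 with DESeq2 and 8 with array weights. Added after seeing the data, leaving out libraries 2048 and 2064 in place of 2054 and 2059, by header, gave 8. Between sets they numbered 5 and ran from 3 to 12 when 1 library was left out, with 3 without library 2048 or 2060, 8 without 2054, 10 without 2057 or 2047 and 12 without 2055. The set of 107 members became 166 at a mean of 5 RPKM and 62 at 20 RPKM, and ran from 96 to 116 when 1 library was left out. The 4 blocks became 7 at r = 0.5 and 1 at r = 0.7; Spearman correlation gave 4. The change of ENSBTAG00000047029, -0.48 (SE 1.82), ran from -1.68 to 0.60 when 1 library was left out and turned above 0 in 9 alternatives: 0.54 without library 2064, 0.02 without 2049, 0.21 without 2055, 0.60 without 2056, 0.81 by header with 12 libraries, 0.27 and 0.28 in edgeR with TMM and with DESeq2-type factors, 0.28 in DESeq2, and 1.87 by header without 2048 and 2064. Its adjusted p was at least 0.9497 throughout, and the cause was not tested. With 5 animals a group and a median SE of 0.63, changes of single members could not be resolved, also where the fitted change was large. The lowest and highest limma changes were -2.43 (SE 1.36) in ENSBTAG00000027412 and 2.21 (SE 1.05) in ENSBTAG00000046257. Each had an adjusted p of 0.9998.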

Other observations

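The hypothalamus library numbered 2054 departed from the pituitary library of that number in members with a gap. ENSBTAG00000047029 stood at 0.812 CPM in hypothalamus and 15.1 CPM in pituitary of that number, and ENSBTAG00000009656 at 0 and 9.99 CPM. ENSBTAG00000047547 stood at 0.710 CPM in hypothalamus against 43.7 CPM in pituitary. In these members the hypothalamus values of number 2059 were 0.853, 0 and 0.122 CPM and its pituitary values 1.85, 0 and 0.616 CPM. Over 10 members with a gap, as log2(CPM + 0.5) minus each member's mean, the hypothalamus library 2054 had r of 0.139 with its own pituitary library and 0.951 with that of number 2059. The other 11 hypothalamus libraries had r of 0.751 to 0.983 with their own. Among these, library 2055 had a higher r with the pituitary library 2054 (0.911) than with its own (0.874). The uterus libraries of these numbers showed the reverse of the pituitary, with ENSBTAG00000047029 at 1.82 RPKM under number 2054 and 145 RPKM under number 2059. Their puberty labels were reversed as well. In uterus number 2054 was labelled post-puberty and number 2059 pre-puberty, and in hypothalamus and pituitary the other way round. These values were chosen after they were seen, and no sample was moved between groups for them.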
